A study of Mus musculus with 54 samples.

Results

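The small leucine-rich proteoglycans are secreted matrix proteins whose core is a curved stack of leucine-rich repeats, and 5 genes of the family were followed here through the mouse mammary cycle: lumican (Lum), decorin (Dcn), biglycan (Bgn), fibromodulin (Fmod) and osteoglycin (Ogn). Members were all probe sets of the array annotated to exactly 1 of these symbols, which gave 5 of 8251 genes and 8 of 12488 probe sets. Of the 8, 7 passed the filter on dim signals. Lum and Dcn had 1 probe set each, and Bgn, Fmod and Ogn had 2 each, named here the first and the second in order of mean signal. The probe set that did not pass, the second of Fmod and one designed under relaxed rules, reached at most 24.2 on any array and lay at or under the floor of 9.4 on 40 of 54 arrays, so Fmod is described from its first probe set.

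Decorin and biglycan carry chondroitin or dermatan sulfate chains, whereas lumican and fibromodulin can carry keratan sulfate, and osteoglycin belongs to another branch of the family. Their cores bind the surface of fibrillar collagens and regulate how fibrils grow in width, and decorin also binds TGF-beta. In the mammary gland the connective tissue around ducts and alveoli is laid down mainly by fibroblasts, and it is rebuilt each time the epithelium expands, secretes and regresses.

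The study took total RNA from the inguinal gland, freed of its lymph node, of 3 mice at each of 18 time points, 1 gland of 1 mouse per array. Virgin glands were from mice of 6, 10 and 12 weeks. Mice mated at 12 weeks of age gave pregnancy days 1, 2, 3, 8.5, 12.5, 14.5 and 17.5 and lactation days 1, 3 and 7, and removal of the pups after 7 days of lactation gave involution days 1, 2, 3, 4 and 20. All mice were kept under standard conditions, no mutant allele or agent is named in the labels, and the strain is not stated.

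The annotated promoters of the 3 members with a matching entry are shown to set the genes side by side. They are given as the 250 bases before the start of transcription, from RefSeq on GRCm38.p6. The entries matched by symbol were Bgn at chrX:73483351-73483600, Fmod at chr1:134037004-134037253 and Ogn at chr13:49607765-49608014, each on the plus strand and printed 5′ to 3′. Lum and Dcn had no matching entry and are named only. Capitals mark matches to the motifs searched on both strands.
Bgn: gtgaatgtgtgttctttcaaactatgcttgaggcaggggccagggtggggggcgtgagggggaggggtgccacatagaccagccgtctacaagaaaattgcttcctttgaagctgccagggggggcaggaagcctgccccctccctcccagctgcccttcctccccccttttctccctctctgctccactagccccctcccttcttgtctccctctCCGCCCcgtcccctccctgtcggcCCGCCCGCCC
Fmod: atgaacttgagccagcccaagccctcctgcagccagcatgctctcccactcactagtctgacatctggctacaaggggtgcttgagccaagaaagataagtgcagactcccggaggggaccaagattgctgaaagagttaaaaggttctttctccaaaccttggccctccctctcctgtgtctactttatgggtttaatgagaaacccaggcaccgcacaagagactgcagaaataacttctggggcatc
Ogn: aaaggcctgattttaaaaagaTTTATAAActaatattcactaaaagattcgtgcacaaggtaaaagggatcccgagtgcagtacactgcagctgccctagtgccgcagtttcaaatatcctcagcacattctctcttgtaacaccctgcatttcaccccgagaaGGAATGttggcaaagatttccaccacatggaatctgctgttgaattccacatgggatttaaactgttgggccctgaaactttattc
The motifs searched were the TATA box TATAAA, the CCAAT box, the GC box GGGCGG, the AP-1 element TGANTCA, the STAT element TTCNNNGAA, the SMAD element CAGACA and the TEAD element GGAATG. The window of Bgn held 3 reverse matches to the GC box at 34 to 29, 10 to 5 and 6 to 1 bases before the start, of which the last 2 overlap; 32.7% of 32851 promoters hold this motif. The window of Ogn held the TATA box at 227 to 222 and its reverse at 229 to 224, which overlap, and the TEAD element at 86 to 81. Of all promoters 12.4% hold the TATA box and 12.6% the TEAD element. None of the 7 motifs was found in the window of Fmod. GC content was 64.4% for Bgn, 51.2% for Fmod and 42.0% for Ogn, where the median of all promoters was 52.4%.

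Values are the authors' MAS5 signals, a linear intensity per probe set scaled to a common level on each array, so levels are compared between time points of 1 probe set and never between probe sets. Array medians lay between 31.8 and 44.6, and mice of 1 time point correlated at 0.875 or more over the probe sets. The labelled tissue was checked against its markers: all 12 milk protein genes tested were higher at lactation day 7 than at 12 weeks virgin (median log2 difference 6.10), with Wap at 15390 against 247.1. Of 14 luminal genes 5 were higher and 4 lower. The luminal keratins were at lower means, Krt8 at 719.5 against 849.9, Krt18 at 281.4 against 727.6 and Krt19 at 232.7 against 1213. Other luminal genes had higher means, among them Elf5 at 1772 against 59.0 and Cldn7 at 265.0 against 55.4. The probe sets of the basal keratins Krt5 and Krt14 reached only 25.6 and 24.0 on any array. Other basal genes were measured, among them Acta2 at 635.8 against 322.7 and Mylk at 451.8 against 411.7, and of the 7 tested 2 were higher and 0 lower. Some arrays stood apart from the others of their time point. Mouse C of pregnancy day 1 had a mean log2 signal of 7.79 over 18 fibroblast genes, where mice A and B had 8.52 and 8.62. It also had the lowest Ogn of its day. Mouse A of lactation day 3 had 6.81, where mice B and C had 6.01 and 6.11. Its Lum, Dcn, Ogn and Fmod (first probe set) were the highest of that day. Whole glands were measured and arrays were scaled to a common level. Fewer fibroblasts, less RNA per fibroblast and more RNA from other cells therefore cannot be told apart.

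**Figure D1:**
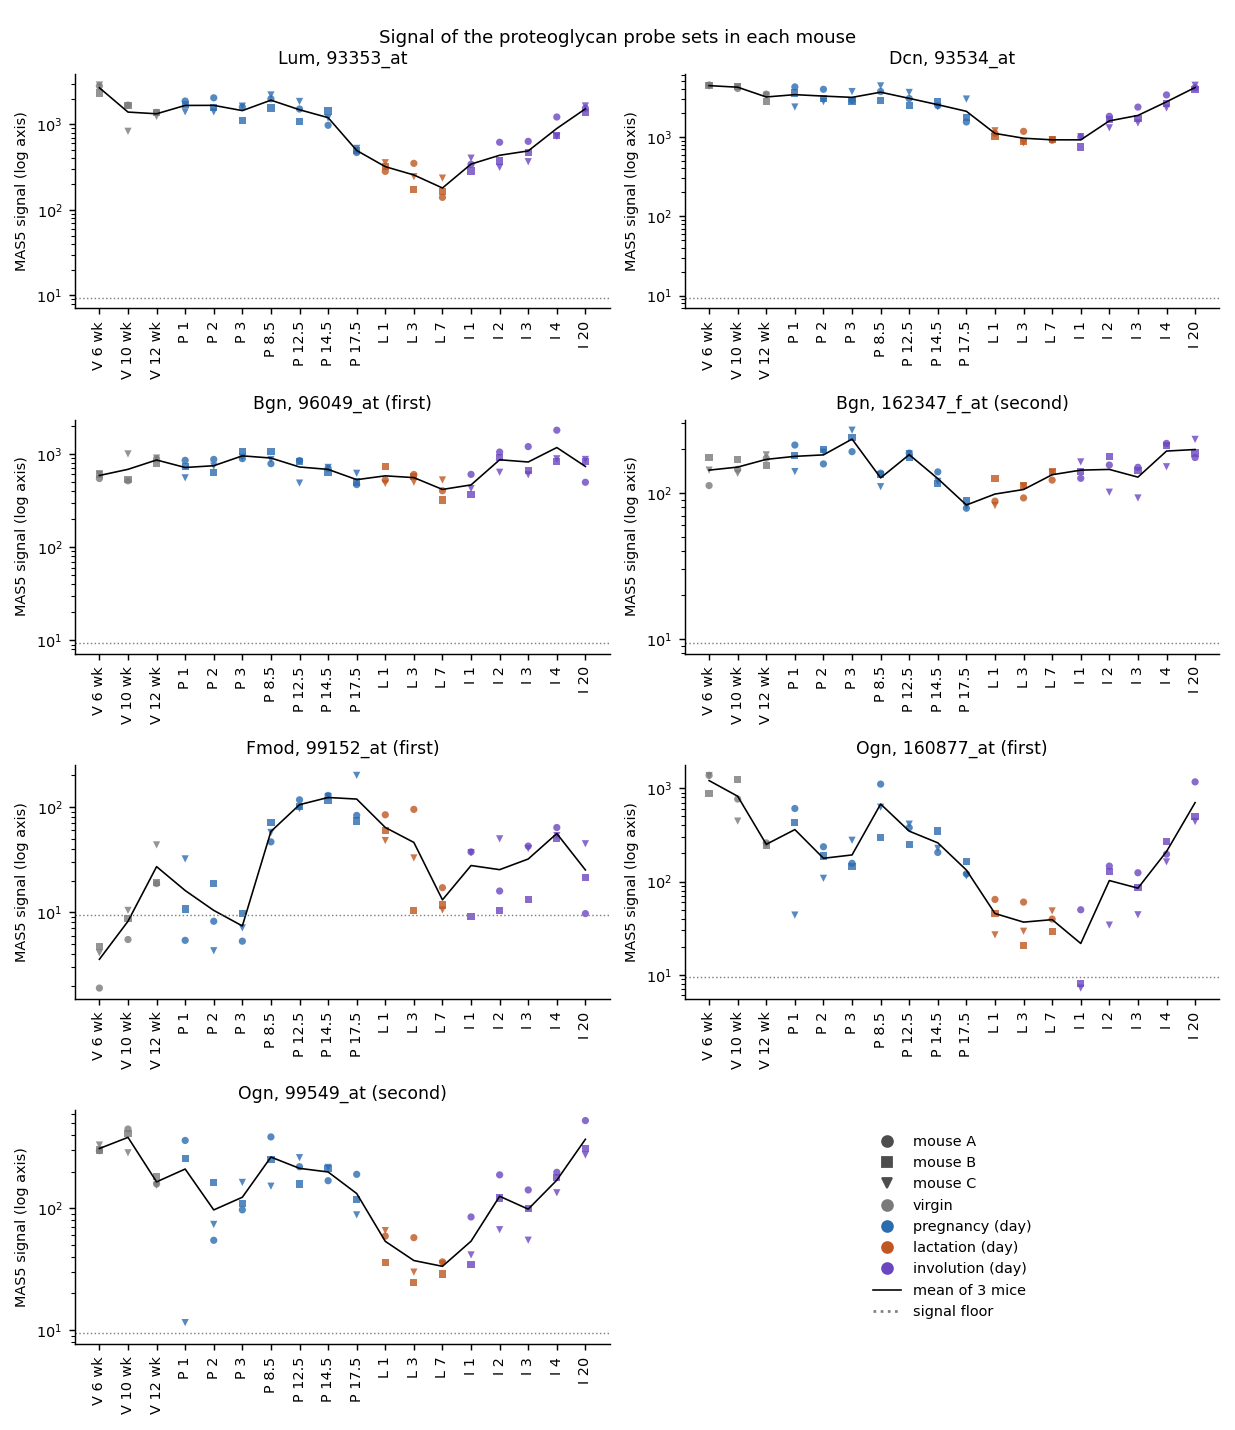
MAS5 signal (log axis) of the 7 probe sets over the 18 time points, with 1 point per mouse, a line through the means of 3 mice and a dotted line at the floor of 9.4. Lum, Dcn and Ogn are low through lactation and return in involution, Bgn moves within a narrow band, and Fmod peaks in mid to late pregnancy.

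Decorin, the TGF-beta binding member, was at its highest in the 6-week virgin gland and lowest from lactation to the first day of involution. The 3 mice of 6 weeks had signals of 4515.1, 4430.3 and 4348.5, those of 12 weeks 3464.5, 2767.8 and 3333.0, and those of lactation day 7 908.5, 933.6 and 914.9. All 9 lactation arrays (840.3 to 1194.9, median 933.6) lay below all arrays of virgin and mid pregnancy glands. Means ran from 4431 ± 83.3 (SD, n = 3) at 6 weeks down to 918.3 ± 149 at involution day 1, a 4.87-fold range of geometric means. By involution day 4 the mice had 3384.8, 2611.6 and 2314.6, and by day 20 they had 4175.1, 3944.1 and 4481.1. In the order of the 18 means, 1 of 17 neighbouring pairs did not overlap, involution day 2 above lactation day 1. In time order, every mouse of pregnancy day 17.5 (1541.9 to 3003.2) was above every mouse of lactation day 1 (1014.2 to 1194.9).

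Lumican, which binds collagen fibrils and is best known for the transparency of the cornea, followed the same course over a wider range. Its signals were 2814.0, 2335.0 and 2891.4 at 6 weeks, 1381.0, 1372.5 and 1240.7 at 12 weeks, and 1992.4, 1559.7 and 2211.3 at pregnancy day 8.5. They were 468.4, 494.1 and 524.0 at pregnancy day 17.5 and 140.0, 165.6 and 235.5 at lactation day 7. Every 6-week mouse was above every mouse of any other time point, and the fall began before birth: pregnancy day 14.5 (976.6 to 1433.4) lay wholly above pregnancy day 17.5. After weaning the signals were 1221.2, 741.7 and 724.5 at involution day 4 and 1544.9, 1376.7 and 1644.2 at day 20. The highest and lowest means, 2680 ± 301 at 6 weeks and 180.4 ± 49.4 at lactation day 7 (SD, n = 3 each), were 15.2-fold apart as geometric means, and 2 of 17 neighbouring pairs in the order did not overlap.

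Osteoglycin, also called mimecan, had the widest range of the 5 genes with its first probe set, while the range of its second was narrower than those of Lum and Fmod. With the first probe set its signals were 1376.2, 883.0 and 1369.6 at 6 weeks, 259.8, 242.7 and 249.5 at 12 weeks, 1108.9, 298.3 and 626.8 at pregnancy day 8.5, and 39.6, 29.1 and 48.4 at lactation day 7. At involution day 1 they were 49.8, 8.0 and 7.2, with 2 of 3 mice under the floor, and at day 20 they were 1172.3, 493.9 and 440.4. The geometric means of 6 weeks and involution day 1, with the floor applied, were 72.3-fold apart. The second probe set ran between 382.8 ± 85.6 at 10 weeks and 33.4 ± 4.01 at lactation day 7 (SD, n = 3 each), an 11.3-fold range. No neighbouring pair in either order was free of overlap. At pregnancy day 1, mouse C had 43.7 where mice A and B had 607.4 and 431.4, and with the other probe set 11.5 against 361.1 and 258.4, so the SD of log2 there was 2.06 and 2.74 beside medians of 0.61 and 0.48 over the time points. The same mouse had the lowest Dcn of its day, 2382.2 against 4269.0 and 3582.7, and the lowest Lum, 1402.6 against 1876.9 and 1722.8.

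Biglycan, the close relative of decorin that is also known as a ligand of Toll-like receptors, changed least. With the first probe set the signals were 542.7, 600.1 and 612.2 at 6 weeks, 883.1, 789.9 and 899.8 at 12 weeks, 782.8, 1047.5 and 869.0 at pregnancy day 8.5, and 467.0, 498.2 and 617.6 at pregnancy day 17.5. They were 401.7, 318.7 and 523.8 at lactation day 7, 1789.3, 825.7 and 883.3 at involution day 4, and 494.6, 829.5 and 868.6 at day 20. Its highest mean, 1166 ± 540.5 at involution day 4, rested on mouse A, which stood well above mice B and C. That mean was 2.69-fold above the lowest, 414.7 ± 103 at lactation day 7 (SD, n = 3 each, geometric means), and every neighbouring pair in the order overlapped. The second probe set had a different order, with the highest mean at pregnancy day 3 (233.6 ± 39.1) and the lowest at pregnancy day 17.5 (82.6 ± 5.52). Its f suffix marks a design whose probes may match related sequences, so its course is given beside that of the first and not merged with it.

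Fibromodulin, a collagen-binding member best known from cartilage and tendon, had a course unlike the others. In virgin glands and the first days of pregnancy it was near the floor: 10 of 18 arrays were at or under 9.4, and the highest was 43.6. All 3 mice of 6 weeks (1.9, 4.7 and 4.1) were under the floor, where values have no order. From pregnancy day 8.5 it was clearly measured, at 46.6, 71.7 and 57.3, then 117.0, 101.9 and 96.7 at day 12.5, 128.8, 114.7 and 125.7 at day 14.5, and 83.2, 73.7 and 199.7 at day 17.5. The mean of pregnancy day 14.5, 123.1 ± 7.41, was the highest and at least 13.1-fold above that of 6 weeks. Signals then dropped to 17.1, 11.7 and 10.5 at lactation day 7, after a lactation day 3 on which mouse A had 94.9 and mice B and C 10.4 and 32.8. At involution day 4 they were 63.8, 50.4 and 53.5, and at day 20 they were 9.7, 21.2 and 44.7. Thus the 9 arrays of pregnancy days 8.5 to 14.5 (46.6 to 128.8, median 101.9) lay above all 18 arrays of virgin glands and pregnancy days 1 to 3, while for Lum, Dcn, Bgn and Ogn the ranges of these periods overlapped. Cartilage and tendon markers were thinly covered: of 10, 3 were tested, and Acan, Col2a1, Matn1 and Matn3 had no array over 33.0. The summed signal of the 3 tested was 82.3 to 224.1 at pregnancy day 8.5 and 229.5 to 357.2 at day 14.5, and its part in the Fmod course was not tested.

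**Figure D2:**
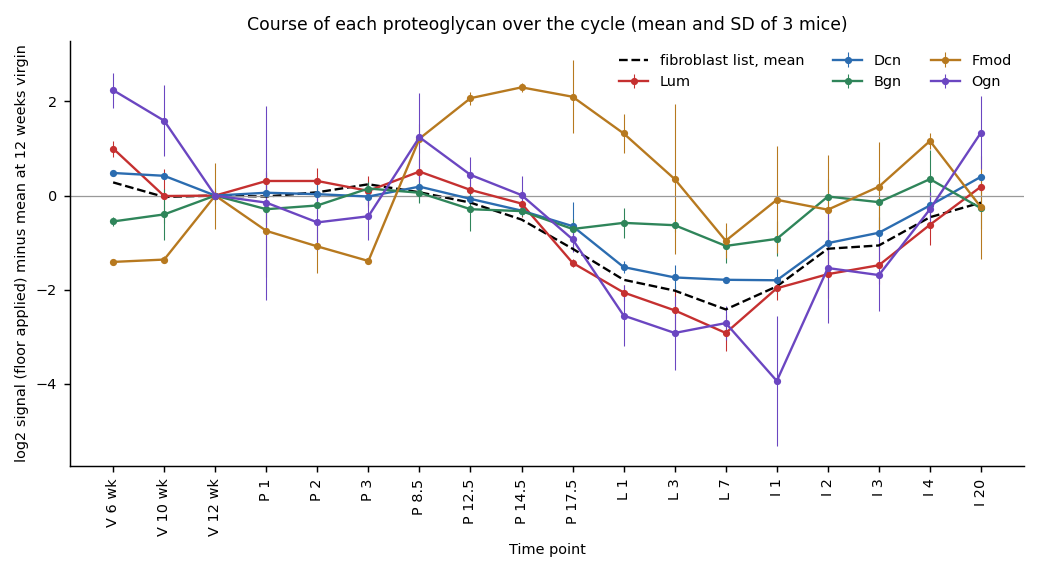
Mean log2 signal with the floor, relative to the 12-week virgin gland, for 1 probe set per gene (bars show the SD of 3 mice) and for the mean of 18 fibroblast genes (dashed). Lum, Dcn and Ogn fall and return as the dashed line does, Bgn stays closer to 0, and Fmod reaches 2.30 at pregnancy day 14.5 while the others stay near 0. Lum and Ogn lie above the dashed line at 6 weeks. Ogn is also above it at 10 weeks, pregnancy day 8.5 and involution day 20, and below it at involution day 1.

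Whether a member varied with time at all was asked by limma's moderated F test over all 54 arrays, with Benjamini-Hochberg adjustment over 8640 probe sets. All 7 member probe sets passed an adjusted p under 0.05, as did 88.1% of all probe sets, so this count says little about the family. By F, Lum was at place 139 of 8640 (F = 39.9, adjusted p = 5.9e-19) and Dcn at 294 (F = 29.0, adjusted p = 1.3e-16). Ogn (first probe set) was at 1026, Fmod at 1932, Bgn (second probe set) at 2724, Ogn (second probe set) at 3301 (F = 6.11) and Bgn (first probe set) at 5270 (F = 3.72, adjusted p = 0.00041). Without mouse C of pregnancy day 1, F was 21.6 and 16.1 for the first and second Ogn probe sets, so the places of Ogn rest on that array.

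The first comparison asked what changed as the virgin gland matured from 6 to 12 weeks. Lum fell 2.01-fold, to 1331 ± 78.7 from 2680 ± 301 (SD, n = 3 each; 95% interval of the log2 difference -1.53 to -0.48, limma adjusted p = 0.0045), and Ogn of the first probe set fell to 250.7 ± 8.61 from 1210 ± 283 (-2.24 ± 0.63, adjusted p = 0.0079). These were 2 of 7 member probe sets called lower with 0 higher, where 12.5% of all probe sets were called lower and 17.2% higher. Ogn of the second probe set had -0.91 ± 0.62 (adjusted p = 0.27), Dcn -0.48 ± 0.21 (adjusted p = 0.074), Bgn (first probe set) 0.55 ± 0.27 (adjusted p = 0.12), Bgn (second probe set) 0.26 ± 0.20 (adjusted p = 0.33) and Fmod 1.41 ± 0.58 (adjusted p = 0.062), at least 2.65-fold. Groups did not overlap for 6 of 7, as for 50.8% of all probe sets. The median over the members was -0.48 beside 0.17 over all, and with arrays scaled to equal medians the latter was -0.03. Among the collagens that the family binds, 4 of 11 fell and 1 rose, with Col5a2 at 1202 against 2828 (-1.23 ± 0.33, adjusted p = 0.0062) and Col3a1 at 2364 against 4503 (-0.93 ± 0.31, adjusted p = 0.02). The fibroblast list had 5 of 18 lower and 1 higher, among them Pdgfra, a receptor that marks fibroblasts, at 463.8 against 826.6. The ratio of the 3 prime to the 5 prime beta-actin control, which reads RNA integrity, was 1.99 ± 0.487 at 12 weeks and 3.75 ± 0.363 at 6 weeks. With this ratio as a covariate Lum was at -0.77 and Ogn at -1.63, and neither passed.

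Mid pregnancy was represented by day 8.5, set against 12 weeks virgin. No member probe set was called by limma in either direction, while 4.61% of all probe sets were called higher and 6.55% lower. At an unadjusted limma p under 0.05 there were 2 of 7 members, beside 2512 of all 8640 probe sets, so this count says little about the family. The 2 were Bgn (second probe set) at -0.42 ± 0.20 and Fmod at 1.21 ± 0.58. With array quality weights 2 others passed, Lum and Ogn (first probe set). Lum was at 0.52 ± 0.26 (95% interval -0.01 to 1.04), Dcn at 0.18 ± 0.21 (-0.24 to 0.60) and Bgn (first probe set) at 0.06 ± 0.27 (-0.49 to 0.61). Ogn (first probe set) was at 1.24 ± 0.63 (-0.04 to 2.52) with its 3 mice of day 8.5 spread from 298.3 to 1108.9. None of the 11 collagens was called either, and their median was 0.00. Chad, a leucine-rich relative of cartilage and the single other family gene tested, fell from 49.9 to 20.5 (-1.21 ± 0.39, adjusted p = 0.04).

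Between pregnancy days 8.5 and 17.5, when alveoli fill the fat pad, 4 of the 5 genes were called lower with at least 1 probe set and Fmod was not, while relative to the fibroblast list Dcn (0.36) and Bgn (0.43 and 0.59) had the opposite sign. Lum fell to 495.5 ± 27.8 from 1921 ± 332 (SD, n = 3 each; -1.94 ± 0.26, adjusted p = 6.8e-07), with no overlap between the groups. Dcn fell by 0.84 (SE 0.21, adjusted p = 0.0031), although mouse C of day 17.5, at 3003.2, lay above mouse B of day 8.5, at 2850.2. Bgn fell by 0.77 (SE 0.27, adjusted p = 0.036) with the first probe set and by 0.61 (SE 0.20, adjusted p = 0.025) with the second. Ogn fell by 2.17 (SE 0.63, adjusted p = 0.011) with the first probe set, and with the second it was at -0.97 ± 0.62 (adjusted p = 0.26). Fmod was at 118.9 ± 70.2 against 58.5 ± 12.6 (0.89 ± 0.58, adjusted p = 0.27). So 5 of 7 member probe sets were called lower and 0 higher, where 11.2% of all probe sets were lower and 11.7% higher, and the median was -0.84 beside 0.10 over all. Centred on the fibroblast list, only Lum kept its call (-0.74), Ogn (first probe set) was at -0.97 and not called, and Bgn (second probe set) and Fmod (2.09) were called higher. All probe sets of the array were moved up alike by this centring.

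The calls of Bgn and Ogn in that comparison rest on few arrays. Leaving out 1 array at a time kept Lum (-2.08 to -1.83) and Dcn (-1.13 to -0.65) past the threshold throughout. Bgn (first probe set) lost its call on leaving out any array but mouse C of day 17.5 (-0.89 to -0.66), and Bgn (second probe set) without mouse A or B of day 8.5 or mouse A or C of day 17.5 (-0.71 to -0.56). Ogn (first probe set) lost it without mouse A of day 8.5, at -1.72. The count of members called was 2 without mouse A of day 8.5 and 3 without mouse B of day 8.5 or mouse A of day 17.5. Groups did not overlap for 5 of 7 members and for 32.1% of all probe sets.

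Collagens fell over the same interval, 8 of 11 with 0 rising and a median of -1.24. Col5a2 fell from 1628 to 393.5 (-2.08 ± 0.33, adjusted p = 1.6e-05), Col3a1 from 3047 to 751.9 (-2.04 ± 0.31, adjusted p = 5.3e-06) and Col6a3 from 1345 to 420.6 (-1.77 ± 0.30, adjusted p = 2.9e-05). Of 18 genes of fibril assembly 10 fell and 1 rose: the crosslinking enzyme Lox fell from 133.5 to 40 and the tenascin Tnxb from 232.9 to 86.2, while P4hb, a subunit of collagen prolyl hydroxylase that is also a general folding enzyme of the secretory pathway, rose from 104.2 to 458.0. Of 11 enzymes that make the sugar chains 1 was called higher and 1 lower, a share no larger than among all probe sets. Ugdh, which makes the glucuronic acid donor, fell from 676.7 to 243.5 (-1.42 ± 0.26, adjusted p = 9.2e-05), and B4galt1, a galactosyltransferase that also serves lactose synthesis, rose from 395.2 to 997.9 (1.29 ± 0.26, adjusted p = 0.00043). Fibroblast markers fell for 13 of 18 with 0 rising (median -1.23), and their mean log2 went from 8.40 to 7.20. White adipocyte markers were lower for 6 of 11, endothelial markers lower for 6 of 11 and higher for 1, and luminal markers higher for 7 of 14 and lower for 1. The part of these cell types in the falls was not tested.

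**Figure D3:**
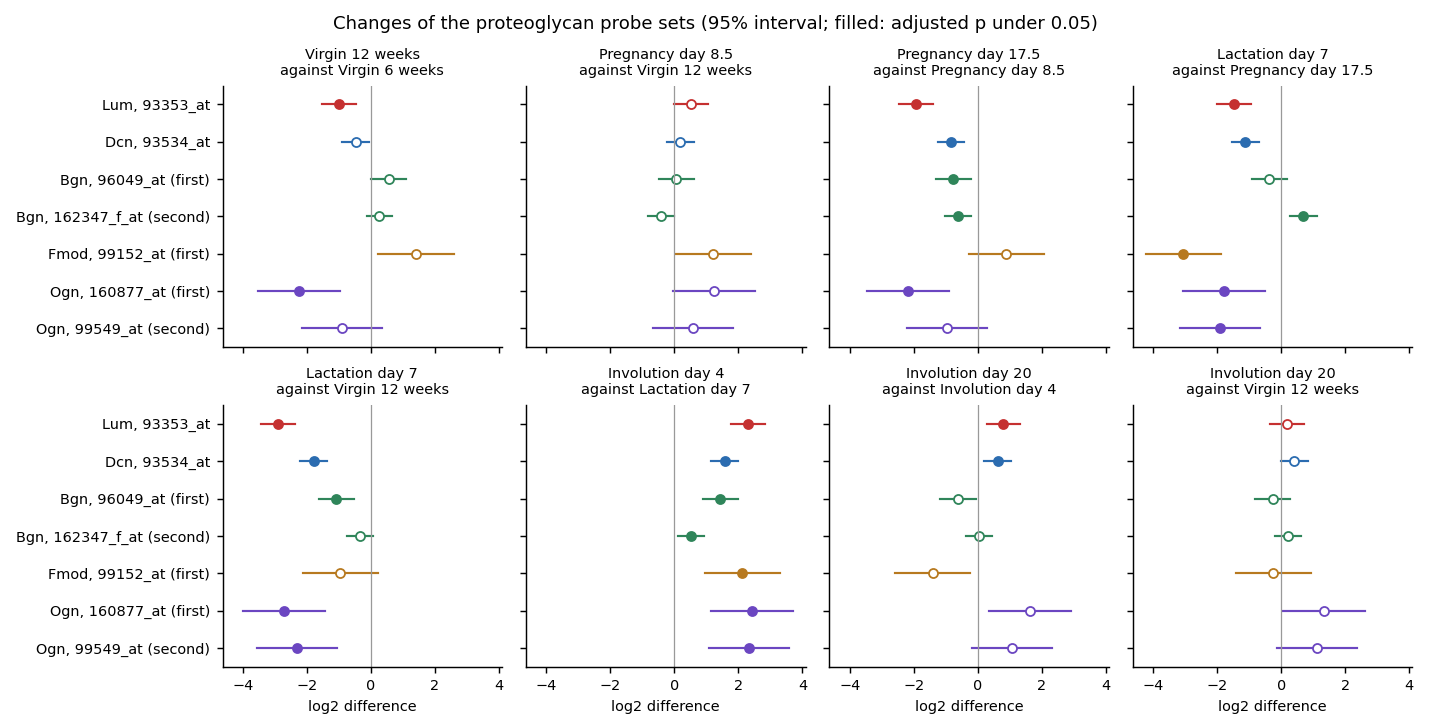
Log2 difference of each member probe set in the 8 comparisons, with 95% intervals; filled points passed an adjusted p under 0.05 over 8640 probe sets. All 7 are right of 0 at involution day 4 against lactation day 7, and none is filled at pregnancy day 8.5 against 12 weeks or involution day 20 against 12 weeks; relative to the fibroblast list Dcn and both Bgn probe sets change sign at lactation day 7 against 12 weeks and at involution day 4.

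From pregnancy day 17.5 to lactation day 7, the change to a secreting gland, Fmod joined the fall and had the steepest one. It went to 13.1 ± 3.52 from 118.9 ± 70.2 (SD, n = 3 each), a log2 difference of -3.06 ± 0.58 (SE, adjusted p = 5.4e-05), 8.35-fold lower, and from -3.33 to -2.61 on leaving out any 1 array. Lum fell as well (-1.49 ± 0.26, adjusted p = 1.7e-05), as did Dcn (-1.13 ± 0.21, adjusted p = 3.5e-05) and both probe sets of Ogn (-1.78 ± 0.63, adjusted p = 0.023, and -1.92 ± 0.62, adjusted p = 0.012). The Ogn calls were lost without mouse B of either day (first probe set, -1.62 and -1.58) or without mouse A of pregnancy day 17.5 (second probe set, -1.62). The probe sets of Bgn disagreed: the first had -0.37 ± 0.27 (adjusted p = 0.29), and the second rose by 0.69 ± 0.20 (adjusted p = 0.0063) from 82.6 ± 5.52 to 133.2 ± 9.51. The members called were thus 5 lower and 1 higher of 7, where 20.7% of all probe sets were lower and 19.3% higher; the member median was -1.49 beside 0.02. Collagens fell for 9 of 11 with 0 rising, Col5a2 to 39.9 from 393.5 (-3.29 ± 0.33, adjusted p = 3.1e-10) and Col1a1 to 347.8 from 1927 (-2.51 ± 0.27, adjusted p = 1.6e-09). Fibroblast genes were lower for 14 of 18 and higher for 1. Relative to their mean, only Fmod among the members called lower was still past the threshold, and the signs of Dcn and of Bgn (first probe set) turned to 0.16 and 0.92.

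Set against the mature virgin gland directly, lactation day 7 had lower Lum (-2.92 ± 0.26, adjusted p = 1.9e-12, 7.55-fold), Dcn (-1.79 ± 0.21, adjusted p = 1.7e-09, 3.45-fold), Bgn (first probe set) (-1.08 ± 0.27, adjusted p = 0.0011, 2.11-fold) and Ogn (-2.71 ± 0.63, adjusted p = 0.00042, and -2.31 ± 0.62, adjusted p = 0.0018). This comparison shares the lactation arrays with the one before it and is no separate support for it. Bgn (second probe set) was at -0.35 ± 0.20 (adjusted p = 0.15) and Fmod at -0.96 ± 0.58 (adjusted p = 0.17). Thus 5 of 7 were called lower and 0 higher, where 27.2% of all probe sets were lower and 24.3% higher, and groups did not overlap for 7 of 7 members and 60.7% of all probe sets. None of these calls was lost on leaving out any 1 of the 6 arrays. Of 11 collagens 9 were lower and 0 higher, with a median of -2.35, led by Col5a2 at -4.96 ± 0.33, Col1a2 at -3.90 ± 0.36 and Col3a1 at -3.64 ± 0.31. Of 18 genes of fibril assembly 14 were lower and 2 higher, led by Postn (periostin) at 192.7 against 1936 and Thbs2 (thrombospondin) at 14.2 against 129.5. Of 11 enzymes that make the sugar chains 4 were lower and 1 higher, with a median of 0.18. Among them Ugdh was at 86.0 against 565.6 (-2.75 ± 0.26, adjusted p = 6.3e-12) and B4galt1 at 2624 against 401.4 (2.68 ± 0.26, adjusted p = 2.3e-11).

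Markers of fibroblasts moved with these falls, and relative to them the members separated. Of 18 fibroblast genes 15 were lower at lactation day 7 than at 12 weeks and 1 was higher, with a median of -2.86, and their mean log2 was 5.91 against 8.33. The summed signal of the list was 1243 to 1894 at lactation day 7 and 12220 to 13190 at 12 weeks, and no listed gene was at the floor on all 3 arrays of either. Dpt (dermatopontin), a marker of fibroblasts, was at 29.2 against 709.6 and Pdgfra at 37.1 against 463.8. When each array was centred on this list, Lum was at -0.49 (adjusted p = 0.054) and Ogn (first probe set) at -0.29 (adjusted p = 0.59), neither called. The same centring turned Dcn to 0.64, Bgn to 1.35 and 2.08 and Fmod to 1.46, each called higher, and Ogn (second probe set) to 0.11, not called. Centring moved all probe sets up by the same amount here, also their median, which was -0.01 before it. A call after centring thus places a member against the fibroblast list only and does not set it apart from other genes. With the list's collagens left out of it, an alternative chosen after seeing the data, Lum was called lower at -0.73, while Dcn at 0.40, Bgn at 1.11 and 1.84 and Fmod at 1.22 were called higher. Dcn and Bgn thus fell less far than fibroblast genes did, and the place of Lum relative to them depended on the list. Markers of some other cell types were lower as well: 7 of 11 of white adipocytes (median -2.45), 9 of 11 of macrophages (-1.71, 1 higher), 8 of 11 of endothelium (-1.39, 1 higher) and 4 of 6 of T cells (-1.75). Luminal markers were higher for 5 of 14 and lower for 4 (0.28), and basal markers higher for 2 of 7 with 0 lower (0.52). Pericyte and vascular smooth muscle markers were higher for 2 of 9 and lower for 2 (0.44). This list shares Acta2, Myh11, Cnn1 and Tagln with the basal list, and the fibroblast and T cell lists share Thy1. The counts of such lists are therefore not separate. The part of any of these cell types in the falls was not tested.

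**Figure D4:**
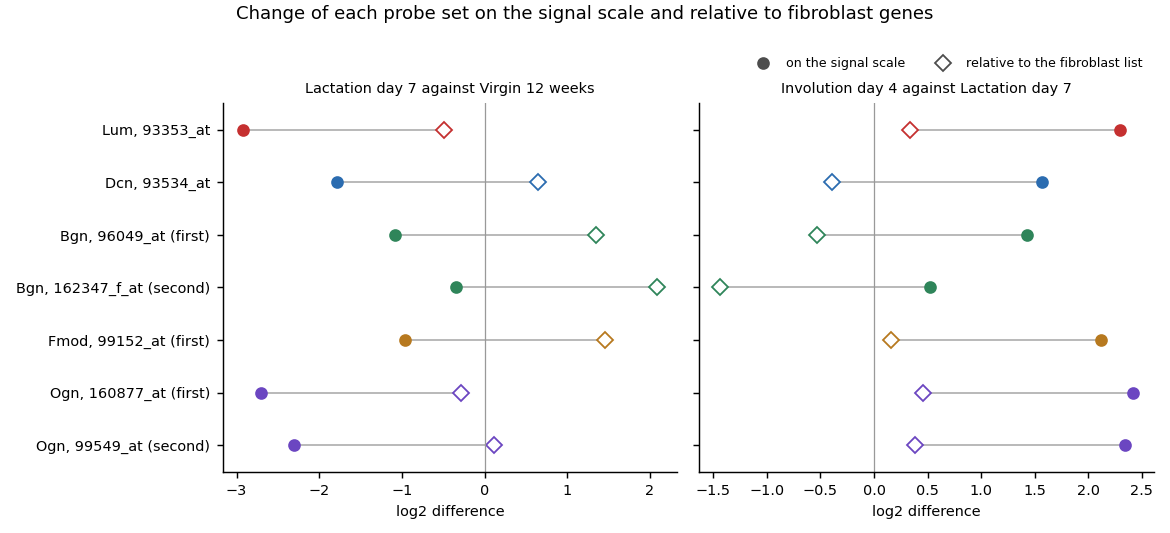
Log2 difference of each member probe set at lactation day 7 against 12 weeks virgin (left) and involution day 4 against lactation day 7 (right), on the signal scale (filled circles) and with each array centred on the mean of 18 fibroblast genes (open diamonds). On the left Dcn moves from -1.79 to 0.64 and Bgn (first probe set) from -1.08 to 1.35, and on the right both change sign as well.

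Involution was examined at day 4 after removal of the pups, when the gland regresses. All 7 member probe sets rose against lactation day 7, where 22.7% of all probe sets were higher and 21.7% lower, and groups did not overlap for 7 of 7 members and 55.4% of all. Lum rose to 895.8 ± 282 from 180.4 ± 49.4 (SD, n = 3 each; 2.30 ± 0.26, adjusted p = 1.7e-09, 4.93-fold) and Dcn to 2770 ± 552.5 from 919.0 ± 13.04 (1.57 ± 0.21, adjusted p = 5.2e-08, 2.98-fold). Fmod rose to 55.9 ± 7.01 from 13.1 ± 3.52 (2.12 ± 0.58, adjusted p = 0.0029, 4.34-fold), and Ogn by 2.42 ± 0.63 (adjusted p = 0.0018) and 2.34 ± 0.62 (adjusted p = 0.002). Bgn rose by 1.43 ± 0.27 (adjusted p = 3.9e-05) with the first probe set, or 1.07 without mouse A of day 4, and by 0.52 ± 0.20 (adjusted p = 0.033) with the second. That last call was lost on leaving out any array but mouse C of day 4 (0.42 to 0.69), and the others were kept without each array. Relative to the fibroblast list only Dcn (-0.39) and Bgn (second probe set) (-1.44) were called, both lower, and Bgn (first probe set) was at -0.53. Without the collagens in the list Dcn was at -0.20 and not called, and Lum was called higher at 0.53. Here centring moved all probe sets down alike.

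The matrix and its remodelling enzymes moved at the same time. Collagens rose for 9 of 11 with 0 falling, Col5a2 from 39.9 to 720.7 (4.21 ± 0.33, adjusted p = 1.3e-13), and 13 of 18 genes of fibril assembly rose and 2 fell, Lox from 12.0 to 108.2 and Pcolce, which speeds procollagen cleavage, from 38.7 to 278.6. Of 10 proteases and inhibitors listed as acting on the family 5 rose and 0 fell, Mmp3 from 33.7 to 906.2 (4.73 ± 0.45, adjusted p = 1.8e-11) and Mmp14 from 143.3 to 534.3. Of 16 known binding partners 7 rose and 0 fell. Among them were the endocytic receptor Lrp1, from 49.2 to 525.4 (3.51 ± 0.38, adjusted p = 6.4e-10), and Tgfb3, a ligand that decorin can bind, from 188.9 to 905.4 (2.28 ± 0.26, adjusted p = 2.2e-09). Also among the 7 were C1qb (156.7 to 1104), C1qc (350.9 to 1874) and C1qa (547.0 to 1279). These C1q genes are in the macrophage list as well and are counted in both. Fibroblast markers rose for 15 of 18 (median 2.02) and macrophage markers for 11 of 11 (median 2.84), Lyz2 from 131.1 to 1569. The part of these cells in the rise was not tested.

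The first 2 days after removal of the pups are given as a description with no test. At involution day 1 Lum was at 341.8, 285.6 and 403.1, with 2 of 3 mice inside the range of the 9 lactation arrays (140.0 to 356.1), and Dcn was at 1001.2, 746.1 and 1007.6, with none above that range (840.3 to 1194.9). Ogn was at its lowest mean there with the first probe set, which had 2 of 3 mice under the floor. With the second it was at 53.7 ± 27.3, above its lactation day 7 mean of 33.4 and level with its lactation day 1 mean of 53.5. At day 2 Dcn was at 1818.8, 1659.7 and 1301.3, above every lactation array. Bgn (first probe set) was then at 1043.6, 909.2 and 633.3, above every mouse of lactation day 7. Its mouse C was inside the range of the 9 lactation arrays (318.7 to 734.8).

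Regeneration was asked by involution day 20 against day 4. Lum rose to 1522 ± 135 from 895.8 ± 282 (0.80 ± 0.26, adjusted p = 0.03) and Dcn to 4200 ± 269 from 2770 ± 552.5 (0.62 ± 0.21, adjusted p = 0.037; SD, n = 3 each). They were the 2 members of 7 called higher, with 0 lower, where 6.99% of all probe sets were higher and 8.54% lower. Both calls are near the threshold: leaving out 1 array gave 0 calls without mouse B or C of day 4 or mouse A of day 20, and Lum alone kept its call without mouse B of day 20. Without mouse C of day 20 neither was called. Ogn (first probe set) was at 1.63 ± 0.63 (adjusted p = 0.073), Bgn (first probe set) at -0.62 ± 0.27 (adjusted p = 0.12) and Fmod at -1.41 ± 0.58 (adjusted p = 0.094), the last called without mouse C of day 20, at -1.96. Macrophage markers fell for 7 of 11, 3 of 18 fibroblast genes rose, and of the binding partners 6 of 16 fell, Tgfb3 from 905.4 to 267.5 (-1.83 ± 0.26, adjusted p = 2.8e-06). The macrophage and partner lists share C1qa, C1qb and C1qc, so their counts are not separate.

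After 20 days of involution no member probe set was called against the 12-week virgin gland by limma in either direction, where 1.27% of all probe sets were higher and 1.37% lower. At an unadjusted limma p under 0.05 there was 1 of 7 members, Ogn (first probe set), beside 1438 of all 8640 probe sets. The intervals of the differences were -0.34 to 0.72 for Lum, -0.02 to 0.82 for Dcn, -0.82 to 0.28 for Bgn (first probe set), -1.42 to 0.92 for Fmod and 0.06 to 2.62 for Ogn (first probe set). The 3 Dcn signals of day 20 were all above those of 12 weeks, and the 3 of Ogn (first probe set) were 440.4 to 1172.3 against 242.7 to 259.8. Groups did not overlap for 3 of 7 members and for 24.6% of all probe sets. The mice of day 20 had been mated at 12 weeks and so were older than the virgins. Age and the past cycle cannot be told apart in this comparison.

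Whether 2 members changed by unequal amounts was read from the difference of their log2 values within each array, over 10 pairs of genes in each of 8 comparisons, with 95% intervals that are not adjusted for the number of pairs. The interval left out 0 for 9 pairs between the virgin ages, 0 pairs at pregnancy day 8.5, 8 at pregnancy day 17.5, 6 and 5 for lactation day 7 against pregnancy day 17.5 and 12 weeks, 2 at involution day 4, and 6 and 2 for involution day 20 against day 4 and 12 weeks. Lum fell more than Dcn between pregnancy days 8.5 and 17.5 (by -1.10, -1.54 to -0.67) and from 12 weeks to lactation day 7 (-1.13, -1.56 to -0.70), and rose more at involution day 4 (0.73, 0.30 to 1.16). Dcn in turn fell more than Bgn (first probe set) from 12 weeks to lactation day 7 (-0.71, -1.28 to -0.14), so that by this measure the order of the falls was Lum, Dcn, Bgn. Fmod and Lum parted by -2.83 (-4.16 to -1.51) in late pregnancy and by 1.57 (0.25 to 2.90) at lactation. Probe sets of 1 gene were also compared: the pair of Bgn differed by -1.06 (-1.63 to -0.48) at lactation day 7 against pregnancy day 17.5, and the pair of Ogn by -1.33 (-2.21 to -0.45) between the virgin ages, so sizes for these genes depend on the probe set.

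Across the 18 time point means, Pearson's r was 0.96 for Lum and Dcn, 0.95 for Dcn and Ogn (first probe set) and 0.89 for Lum and Ogn, while Bgn (first probe set) had 0.55, 0.58 and 0.46 with the same genes and Fmod had -0.17 to 0.05 with all of them (Spearman's rho 0.91, 0.91 and 0.82 for the first 3 pairs). The means of 2 genes share the same 54 arrays and their scaling, and r is given as a description. The Ogn mean of pregnancy day 1 among them holds the low mouse C. Lum and Dcn lie next to each other among the protein-coding genes of chromosome 10, with Kera and Epyc, relatives best known from cornea and cartilage, beyond Lum. The probe sets of Kera and Epyc did not pass the filter, with at most 25.7 and 14.5 on any array, and Btg1, on the other side of Dcn, had r = 0.62 with it. Omd, a neighbour of Ogn on chromosome 13, reached 26.3. Of the 13 other family genes listed, 4 had a probe set and only Chad was tested.

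Among 6436 other genes the closest courses to Lum were those of Gja1 (connexin 43, r = 0.988), Col6a3 (0.983) and Col3a1 (0.982). For Dcn they were Sesn1 (0.99), Procr (0.989) and C1ra (0.986), and for Ogn (first probe set) Aldh1a1 (0.967), Ggh (0.961) and Rbp4 (0.956). Bgn (first probe set) was closest to Myh9 (0.909), Nab2 (0.903) and Fcgbp (0.888), and Bgn (second probe set) to Stard7 (0.81), Prp2 (0.798) and Anxa7 (0.792), so its 2 probe sets shared none of their closest genes. The nearest courses to Fmod, those of Bud31 (0.803), Timm22 (0.792) and Mylk (0.788), were about as close as those to Bgn (second probe set).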

How the data were processed

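Total RNA of whole glands was hybridised to 1 Affymetrix mouse array per mouse, and the deposited table holds the authors' MAS5 signal intensities per probe set, per the submitters' processing notes, which name no MAS5 version. The 2% trimmed means of the arrays were 100.05 to 100.07. Intensities under 9.4, the 25th percentile, were set to that floor and taken to log2. Of 12488 probe sets, 66 controls were left out, and 8640 were kept that were over 22.8, the 40th percentile, on all 3 arrays of at least 1 time point. All kept probe sets entered limma 3.58.1 (R 4.3.3) with 1 mean per time point over 54 arrays, empirical Bayes with an intensity trend and Benjamini-Hochberg adjustment over all 8640. An adjusted p under 0.05 is called. An SD is over 3 mice, an SE and a 95% interval come from the fit, and the number of arrays limits the precision. The fit pools the spread over all time points, so array counts of 3 per group borrow from the rest. The fit was tested on simulated data first.

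Of the probe sets, 10833 had 1 symbol, 396 several and 1193 none, and 10817 matched RefSeq by Entrez ID. Promoters of 3 of the 5 genes matched. Replicates carry the letters A, B and C in all groups. Same-letter deviations from the time point means correlated at 0.012 on average (-0.496 to 0.417) and others at -0.006, so the letters were not taken to pair mice. Comparisons share time points and are not independent.

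The members and the gene lists were chosen with earlier results of these data known. Some lists overlap, and a shared gene is counted in each. Col1a1, Col1a2, Col3a1, Fbln1, Fbln2 and Mfap5 are in the fibroblast list and in those of collagens or fibril assembly. Beside the members, genes were named from the called changes of each list in a comparison, mostly among the 4 largest. Others were named as defining markers, as chromosomal neighbours, or as the 3 closest courses. Centring subtracts the mean log2 of the 18 fibroblast genes from each array. It moves all probe sets of an array by the same amount, and the share of all probe sets called after it is not given. The alternatives were another floor or none, no filter, median scaling, quantile normalization, 1 probe set per gene, no trend, array quality weights, the beta-actin ratio as a covariate, only the 6 arrays compared, the replicate block, centring, and leaving out each array. Summaries and plots used Python 3.11.15, pandas 2.3.3, numpy 2.4.6, scipy 1.17.1 and matplotlib 3.10.9.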

Additional observations from a re-analysis of the deposited data

How the results depend on the processing

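Of 63 member results, 63 kept direction and call without the intensity trend, 62 without the floor or with median scaling, 61 with the replicate block, 60 without the filter and 59 with quantile normalization or the beta-actin covariate, 54 with array weights, and 30 when centred on the fibroblast list (12 calls lost, 5 gained and 16 signs changed), or 33 without its collagens (12, 5 and 13). All 45 were kept with 1 probe set per gene, 46 of 56 with only the 6 arrays compared, and 681 of 714 on leaving out 1 array. The floor at the 40th percentile kept 61. The replicate block gained the calls of Fmod between the virgin ages (1.41, adjusted p = 0.046) and of Ogn at involution day 20 against day 4 (1.63, adjusted p = 0.04). The cause of the changes below was not tested. Signals of Fmod near the floor and 3 mice per time point limit what could be called.

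The number of members called between the virgin ages (2) was 6 with only the 6 arrays compared, 5 with array weights, 0 with the beta-actin covariate and 4 when centred on the fibroblast list with or without its collagens. At pregnancy day 8.5 (0) it was 1 with the floor at the 40th percentile and 2 with array weights. At pregnancy day 17.5 (5) it was 2 with only the 6 arrays, 2 to 5 on leaving out 1 array, and 3 with either centring, of which only Lum was among the 5, with Bgn (second probe set) and Fmod called higher. With either centring it was 3 at lactation day 7 against pregnancy day 17.5 (6), namely Fmod lower and both Bgn probe sets higher. At involution day 4 (7) it was 2, Dcn and Bgn (second probe set) lower, or Lum higher and Bgn (second probe set) lower without the collagens. At involution day 20 against day 4 (2) it was 1 with quantile normalization, 0 without the filter, with only the 6 arrays or with the covariate, and 0 to 2 on leaving out 1 array.

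The sign turned in these cases. Centring, with the value without collagens in parentheses, gave at pregnancy day 17.5 against day 8.5 0.36 (0.31) for Dcn, 0.43 (0.38) and 0.59 (0.54) for Bgn and 0.23 (0.19) for the second Ogn probe set. It gave at lactation day 7 against pregnancy day 17.5 0.16 for Dcn and 0.92 (0.71) for Bgn. Against 12 weeks it gave 0.64 (0.40) for Dcn, 1.35 (1.11) and 2.08 (1.84) for Bgn, 1.46 (1.22) for Fmod and 0.11 for the second Ogn probe set. At involution day 4 it gave -0.39 (-0.20) for Dcn and -0.53 (-0.35) and -1.44 (-1.25) for Bgn. The second Bgn probe set at involution day 20 against day 4 was at -0.27 (-0.27), and between -0.13 and 0.14 on leaving out 1 array. Bgn at pregnancy day 8.5, near 0, was at -0.08 with quantile normalization, -0.04 with weights, -0.00 centred and -0.05 without mouse B of that day. Fmod at involution day 20 against 12 weeks was at 0.01 with the higher floor, 0.17 with weights, 0.15 without mouse C of 12 weeks and 0.30 without mouse A of day 20, with a range of -0.80 to 0.30 on leaving out 1 array. With arrays scaled to equal medians, the median of all probe sets was 0.12 at pregnancy day 8.5, where it was -0.13 as deposited.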
